A study of Homo sapiens with 6 samples.

Results

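CTCF and the cohesin complex build chromatin loops, and the genes that encode them were examined here for the loop-anchoring factor at their own regulatory regions. The 10 genes were CTCF itself, the ring subunits SMC1A, SMC3 and RAD21, the ring-bound subunits STAG1 and STAG2, the loader NIPBL, the release factor WAPL, and its partners PDS5A and PDS5B. They were chosen by name, not by a threshold on a measured value, out of 19970 protein-coding genes on 23 chromosomes. A peak was assigned to a gene when it shared at least 1 bp with the gene interval extended by 10 kb on each side, which is the gene's window. The windows of the 10 genes did not overlap, and held 27 of the 43677 CTCF peaks and 43 of the 78694 H3K27ac peaks in the lists.

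ChIP-seq had been done on cells labelled as neurons, grown from neural progenitors. All of them derive from KOLF2.1J, a human iPSC line in wide use, and the labels name no treatment and no second genotype. There were 2 libraries with an antibody against CTCF, 2 with an antibody against the histone mark H3K27ac and 2 inputs without antibody. Each antibody was represented by 1 peak list that covers both of its libraries, so no spread between libraries could be computed, no test over samples was possible and the read depth behind each value was unknown. The wider study searched for regulatory elements of MAPT, the gene of the microtubule protein tau. To check the label, marker genes were counted by H3K27ac at their start, which 43.7% of protein-coding genes have. It was present in 12 of 14 neuron markers, 7 of 11 neural progenitor markers, 4 of 8 astrocyte markers, 1 of 6 pluripotency markers and 1 of 10 liver and muscle markers.

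Cohesin is a ring of SMC1A, SMC3 and RAD21 that holds DNA and extrudes it into loops with the help of NIPBL. STAG1 or STAG2 joins the ring and binds CTCF, which is a zinc-finger protein that stalls cohesin at its DNA sites. PDS5 proteins and WAPL limit the time cohesin stays on DNA by releasing it. In neurons, which no longer divide, the complex is known for this role in genome folding and gene regulation more than for holding sister chromatids. H3K27ac marks active promoters and enhancers through acetylation of a histone H3 lysine.

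The promoters on which the results turn are shown first, because the CTCF summit of 4 genes fell inside the promoter sequence given by RefSeq (GRCh38.p14), which runs from 250 bases before the start to 50 bases after it. The 250 bases before the start are printed 5′ to 3′ on the strand of the gene. Capitals mark matches to CAGNNGGCG, a stretch of the CTCF binding motif, searched on both strands. CAGNNGGCG was chosen after these promoters had been read, so its matches and their distances to the summits are description only. Matches to CNAGGNGGC, the motif searched first, are not marked.
STAG1, chr3:136752379-136752628, minus strand: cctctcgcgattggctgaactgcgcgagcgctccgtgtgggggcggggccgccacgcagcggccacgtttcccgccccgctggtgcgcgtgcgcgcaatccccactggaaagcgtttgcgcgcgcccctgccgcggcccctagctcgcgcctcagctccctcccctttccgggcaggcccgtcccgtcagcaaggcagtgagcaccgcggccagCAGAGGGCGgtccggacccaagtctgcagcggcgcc
STAG2, chrX:123960310-123960559, plus strand: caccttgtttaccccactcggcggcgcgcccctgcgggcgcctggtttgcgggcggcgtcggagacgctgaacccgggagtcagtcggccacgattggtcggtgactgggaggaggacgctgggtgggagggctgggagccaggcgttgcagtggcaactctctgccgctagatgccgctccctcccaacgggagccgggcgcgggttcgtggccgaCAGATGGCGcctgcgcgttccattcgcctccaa
PDS5B, chr13:32586202-32586451, plus strand: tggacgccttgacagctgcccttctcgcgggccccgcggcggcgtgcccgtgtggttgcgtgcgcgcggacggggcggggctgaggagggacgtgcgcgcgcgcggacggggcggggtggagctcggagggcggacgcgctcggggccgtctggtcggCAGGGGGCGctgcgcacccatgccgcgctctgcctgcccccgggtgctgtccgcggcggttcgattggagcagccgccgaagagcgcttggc
PDS5A, chr4:39977912-39978161, minus strand: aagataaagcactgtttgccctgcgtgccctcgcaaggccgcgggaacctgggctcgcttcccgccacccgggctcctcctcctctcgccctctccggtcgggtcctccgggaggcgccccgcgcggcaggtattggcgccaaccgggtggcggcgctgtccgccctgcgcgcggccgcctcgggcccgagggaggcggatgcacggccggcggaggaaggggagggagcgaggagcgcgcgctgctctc
The last is SMC3, printed for contrast because its promoter had a strong H3K27ac peak and no CTCF peak.
SMC3, chr10:110567445-110567694, plus strand: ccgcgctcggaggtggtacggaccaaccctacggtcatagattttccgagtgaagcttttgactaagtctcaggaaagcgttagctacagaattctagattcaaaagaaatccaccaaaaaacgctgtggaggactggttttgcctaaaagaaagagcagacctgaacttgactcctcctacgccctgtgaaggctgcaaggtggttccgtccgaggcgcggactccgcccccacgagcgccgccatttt

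CTCF was present at the strongest acetylated region of 7 of the 10 genes. These were CTCF, STAG1, STAG2, NIPBL, WAPL, PDS5A and PDS5B, and the genes without it were the ring subunits RAD21, SMC1A and SMC3. The share of 70.0% has a 95% Wilson interval of 39.7 to 89.2%, which covers counting error only. Among all protein-coding genes with an H3K27ac peak in the window, the strongest peak met a CTCF peak in 37.4%. Among genes whose strongest fold enrichment lay within the range of these 10, it did so in 43.1%, a background chosen after the values were seen. The first share lies just under the interval of the 10 genes and the second inside it, and the difference was not tested. That interval counts WAPL, which is among the 7 only through a weak CTCF peak with a q-value of 0.430. At q under 0.05 the count was 6 of the 10 genes, against 35.7% of all genes. The count was 4 (CTCF, STAG1, NIPBL and PDS5A) when the CTCF summit had to lie inside the strongest acetylated region, against 27.3% of all genes under the same definition.

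All 10 genes had an H3K27ac peak at an annotated start, compared with 43.7% of protein-coding genes. All 10 windows held an H3K27ac peak (77.1% of protein-coding genes), and 9 held a CTCF peak (75.2%). The exception was SMC1A. At least 1 acetylated region met CTCF in the windows of 7 genes, against 44.8% of all genes. A CTCF peak lay within 1 kb of the start of the same 7 genes. The corresponding share was 35.4% of all protein-coding genes and 50.4% of those with H3K27ac at the start, which is the closer comparison because all 10 genes had that mark. The gene table gave no strand for RAD21, so both of its ends were used in the counts. Distances and the map use its higher-coordinate end, which lies in its H3K27ac peak.

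**Figure D1:**
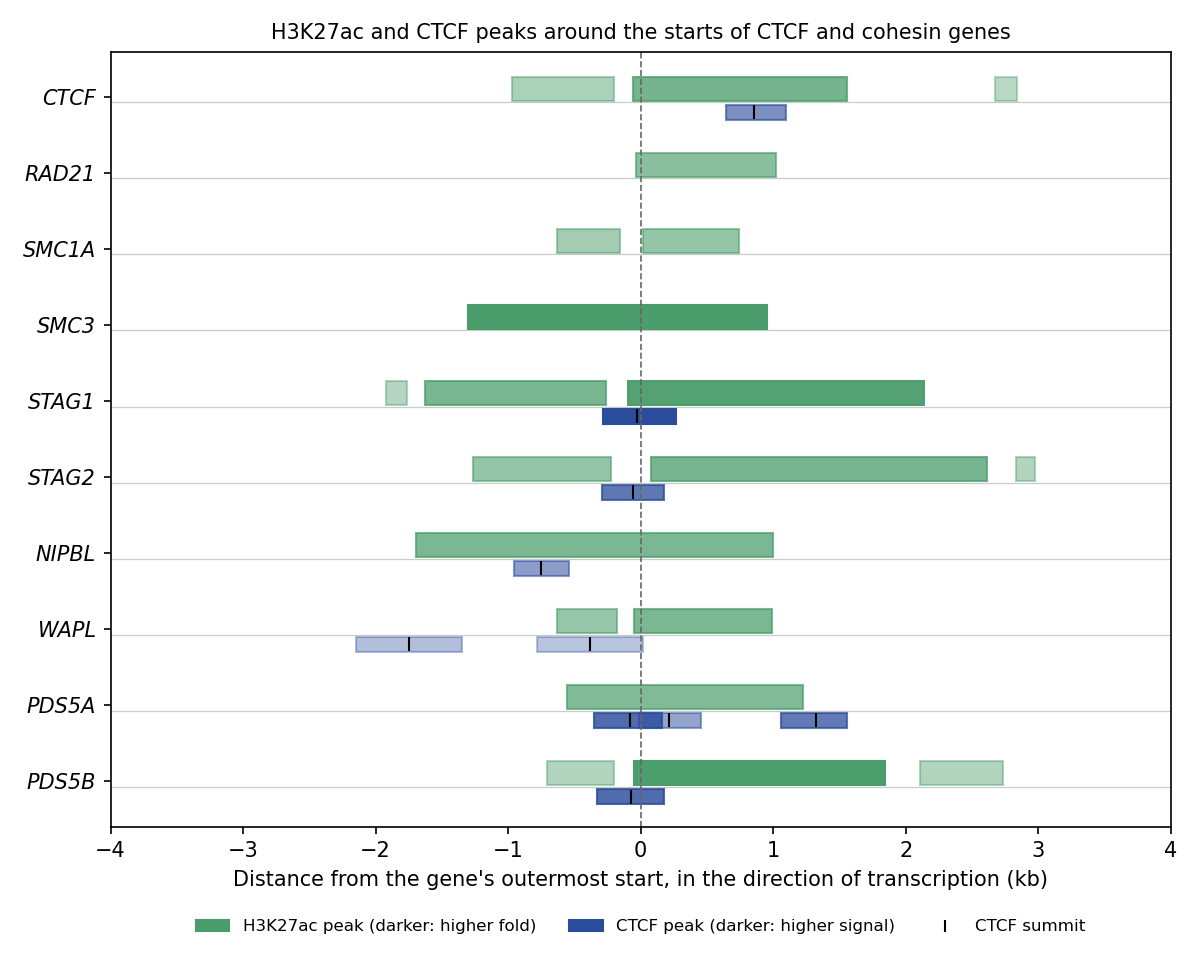
Peaks of both lists around the outermost start of each gene, drawn as distance in kb along the direction of transcription, with H3K27ac peaks above each line, CTCF peaks under it and black ticks at CTCF summits. RAD21 is drawn from its higher-coordinate end. CTCF peaks lie within 1 kb of an annotated start at 7 genes and are missing at RAD21, SMC1A and SMC3.

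The ring subunits form the body of the complex. SMC3, on chromosome 10 from 110567695 to 110606048, had the highest acetylation of the 10 genes. Its H3K27ac peak ran from 110566394 to 110568646 with a fold enrichment of 41.9, at percentile 98.7 of the list, and was the only H3K27ac peak in the window. The nearest CTCF peak to it lay 8.99 kb away, at 110556992 to 110557408, and its signal value was 182. Inside the window, CTCF was found downstream: a peak of signal 164 at 33.0 kb from the start within the gene, and peaks of 58.2 and 191 beyond the gene's end. SMC3 therefore carried both marks in one window without their meeting.

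SMC1A, on chromosome X from 53374149 to 53422728, had the weakest strongest region of the 10 genes. Its H3K27ac peak from 53421987 to 53422709 had a fold enrichment of 15.8, at percentile 89.4 of the list. Another acetylated peak with a fold of 9.76 followed at the start of RIBC1, the neighbouring gene, across a gap of 178 bp that held 1 of the 2 SMC1A starts. No CTCF peak was listed in the window, and the nearest lay 13.2 kb from the acetylated region with a signal value of 223. RAD21, which encodes the subunit that closes the ring, lies on chromosome 8 from 116845934 to 116874776. It had a single H3K27ac peak, from 116873754 to 116874814, with a fold of 18.9. Its only CTCF peak, of signal 61.5, lay inside the gene, 23.4 kb from that end and 5.40 kb from the other, and the nearest CTCF peak to the acetylated region was 12.6 kb away outside the window with a signal of 226. The CTCF peaks nearest to the strongest acetylated regions of the 3 ring genes thus lay 8.99 to 13.2 kb from those regions. Their signals were 182 to 226, above the list median of 91.0.

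STAG1 and STAG2 encode alternative subunits that contact CTCF. The strongest CTCF peak among the 10 genes was at STAG1, which lies on chromosome 3 from 136336236 to 136752378. It covered 136752114 to 136752662 and its signal value was 367 (percentile 99.5 of the list). Its summit was at position -30 relative to the start (the start base being position 0). The peak spanned a gap of 171 bp between H3K27ac peaks with folds of 38.4, on the side of the gene, and 25.6, on the side of the divergent transcript STAG1-DT. STAG2, on chromosome X from 123960560 to 124102656, also had CTCF between acetylated peaks, but with the summit and the start in the gap, whereas those of STAG1 lie in the acetylated peak on the side of the gene. Its CTCF peak from 123960268 to 123960736, with a signal of 242, had its summit at -60 from the outermost of 3 starts. The gap measured 304 bp and separated H3K27ac peaks with folds of 15.1 and 25.7. In the sequences above, the capitals in the STAG1 promoter lie at positions -36 to -28 and their centre is 2 bases from the CTCF summit, and those in the STAG2 promoter lie at -33 to -25 with their centre 31 bases from the summit. STAG1 has a further match at 22 to 30, after the start.

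PDS5A and PDS5B encode the paralogous partners of WAPL. PDS5B, on chromosome 13 from 32586452 to 32778019, had CTCF at 32586123 to 32586626, where the signal value was 276 (percentile 92.8). The summit at -77 lay in a gap of 151 bp between an H3K27ac peak with a fold of 5.23 and the strongest acetylated region of the gene, with a fold of 41.1. The motif match in capitals, at -92 to -84, was centred 11 bases from the summit. PDS5A, on chromosome 4 from 39822863 to 39977911, differed in that its acetylated region was continuous. That region ran from 39976690 to 39978468 with a fold of 22.5 and met 3 CTCF peaks, with signals of 277, 106 and 234. The first pair of these overlap each other and hold the start, with summits at -84 and 217, and the third has its summit at 1320. The PDS5A promoter held no match to CAGNNGGCG, but matched CNAGGNGGC, the motif searched first, at -76 to -68. That match was centred 12 bases from the summit at -84.

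WAPL, the factor that opens the ring, lies on chromosome 10 from 86435256 to 86521792. The CTCF peak at its start, from 86521773 to 86522572, was the weakest of the 27, with a signal of 14.9 at percentile 2.53 and a q-value of 0.430. It had the width of 800 bp shared by 14577 CTCF peaks (33.4%), whose median signal was 35.9. It met H3K27ac peaks with folds of 24.6 and 14.8, which a gap of 124 bp separates, and its summit lay in the second, at WAPL-DT. WAPL left the group of genes with CTCF at their strongest region when peaks of 800 bp were removed, when q under 0.05 was required and when each list was reduced to its strongest 50%. The count was then 6 of 10 in each case, against 24.1%, 35.7% and 19.1% of all genes in the same order.

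NIPBL, which loads cohesin on DNA, lies on chromosome 5 from 36876769 to 37066413. Its H3K27ac peak from 36875071 to 36877769 was the widest of the strongest regions (2699 bp) and had a fold of 24.6. A CTCF peak with a signal of 129 lay wholly inside it, on the side of the divergent transcript NIPBL-DT, with its summit at -750. The remaining CTCF peaks of the NIPBL window, with signals of 133, 141 and 30.8, met no acetylated region.

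The CTCF gene itself, on chromosome 16 from 67562526 to 67639177, carried CTCF at its own strongest acetylated region. That region ran from 67562471 to 67564079 with a fold of 26.4, and the CTCF peak inside it, from 67563166 to 67563626, had a signal of 172 at percentile 73.4. Its summit was at 857, after the start. The strongest CTCF peak of the window, with a signal of 257, lay 82.3 kb from the start, beyond the gene's end, and met no H3K27ac peak. A weak CTCF peak of 800 bp and signal 38.3 met an H3K27ac peak with a fold of 2.49 in the same flank. That acetylated peak was at percentile 3.85 of its list, with a q-value of 0.0745. When genes were placed by the percentiles of their highest H3K27ac fold and highest CTCF signal among protein-coding genes, the nearest to CTCF among the 10 genes, where both values exist, were STAG2, PDS5A and PDS5B, at distances of 5.24, 10.3 and 18.6 percentile points. This measure rests on 1 value per list.

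**Figure D2:**
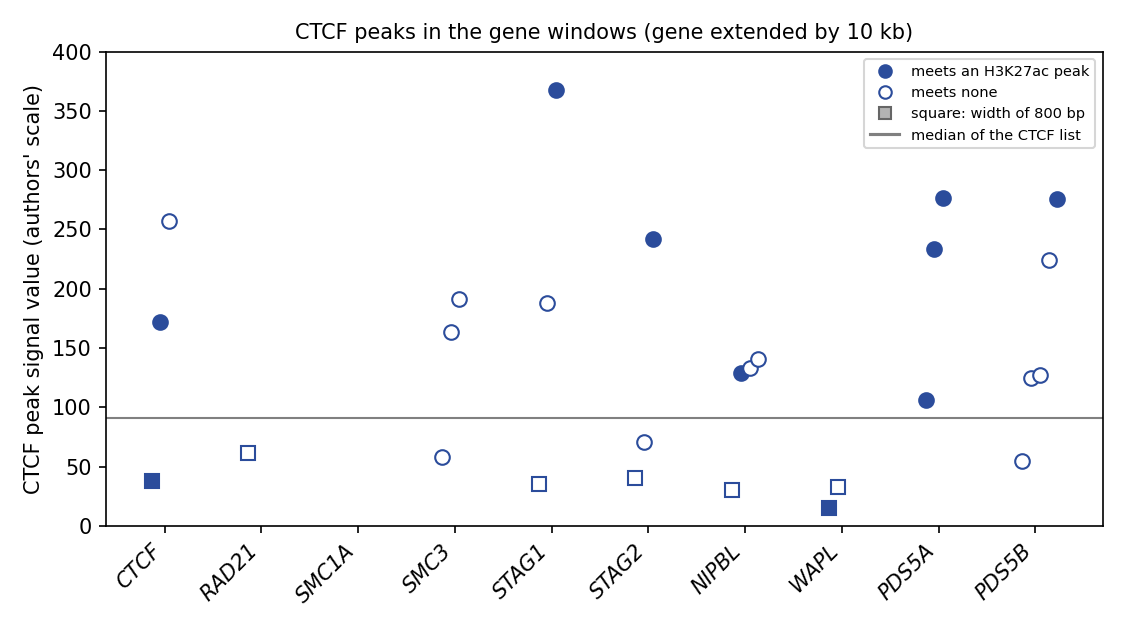
Signal values of the 27 CTCF peaks in the 10 windows, filled where the peak met an H3K27ac peak and square where it had the width of 800 bp; the line is the median of the whole CTCF list (91.0). The filled points of STAG1, STAG2, PDS5A and PDS5B reach 242 to 367, whereas the filled point of WAPL is at 14.9 and SMC1A has no point.

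The start was held by a CTCF peak in 5 of the 10 genes (STAG1, STAG2, WAPL, PDS5A and PDS5B), against 28.8% of genes with H3K27ac at the start. In 4 of them (STAG1, STAG2, WAPL and PDS5B) the peak that holds the start met at least 2 acetylated peaks, against 8.06% of such genes, and 11.5% had such a CTCF peak anywhere within 1 kb of the start. WAPL is in both counts only through its weak CTCF peak of 800 bp, with a q-value of 0.430. It would leave both at q under 0.05. Counting CTCF peaks that met at least 2 acetylated peaks was added after the peaks of these genes had been seen. That count and its interval are therefore description only. The number of genes is small, and the 95% Wilson interval of 4 of 10 runs from 16.8 to 68.7%. A gap under 500 bp between acetylated peaks was also present within 1 kb of the starts of CTCF and SMC1A, of 147 and 178 bp, where no CTCF peak met it. The highest CTCF signal within 1 kb of the start had a median of 242 over the 7 genes, with a range of 14.9 to 367. The median was 82.6 over the 4396 genes with both H3K27ac at the start and CTCF within 1 kb. This comparison was also added after the values were seen. The starts also had close neighbours: another coding or lncRNA gene began or ended within 1 kb in 9 of the 10 genes, all but PDS5A, against 46.3% of genes with H3K27ac at the start.

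The motif counts depended on the letters searched. The first motif searched, CNAGGNGGC, was found in the promoters of 2 of the 9 genes with a RefSeq promoter, PDS5A at -76 to -68 and SMC1A at -204 to -196. A gene can have several promoters, and these are 2 of the 12 promoters of the 9 genes (16.7%). It was present in at least 1 promoter of 16.1% of the 15812 protein-coding genes with one, and in 12.6% of their 22155 promoters, in 22.7% of those with a CTCF summit inside and in 11.3% of those without. CAGNNGGCG was chosen after the promoters of the 10 genes had been read, and can overlap the first motif. It was found in 3 of 9 genes, STAG1, STAG2 and PDS5B, against 18.2% of all genes. By promoter it was present in 3 of the 12 of these genes, 14.1% of all promoters, 30.5% of those with a CTCF summit inside and 12.0% of those without. A CTCF summit fell inside a promoter sequence of 4 of the 9 genes, against 14.8% of all genes, and in 4 of their 12 promoters, against 11.4% of all promoters. Promoter GC content was 56.0 to 76.3% in the 12 promoters of these genes with a median of 67.2%, and the median of all promoters was 62.3%. A match is only a description of letters in this stretch.

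Acetylation at the strongest region ranged from 15.8 to 41.9 in fold enrichment. The order from the highest was SMC3 (41.9), PDS5B (41.1), STAG1 (38.4), CTCF (26.4), STAG2 (25.7), NIPBL (24.6), WAPL (24.6), PDS5A (22.5), RAD21 (18.9) and SMC1A (15.8). Without values of single libraries, it is unknown which neighbours in this order differ beyond their spread. The median of the 10 genes was 25.2, against 16.9 over all genes with an H3K27ac peak and 22.2 over genes with H3K27ac at the start. The absence of CTCF did not follow this order, since the genes without it were the highest and the lowest pair. The highest CTCF signal per window had a median of 242 over 9 genes, against 182 over all genes with a CTCF peak. A highest value can rise with the length of the window. The 10 genes had a median length of 114 kb, against 24.2 kb for all genes, and the role of length was not tested.

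**Figure D3:**
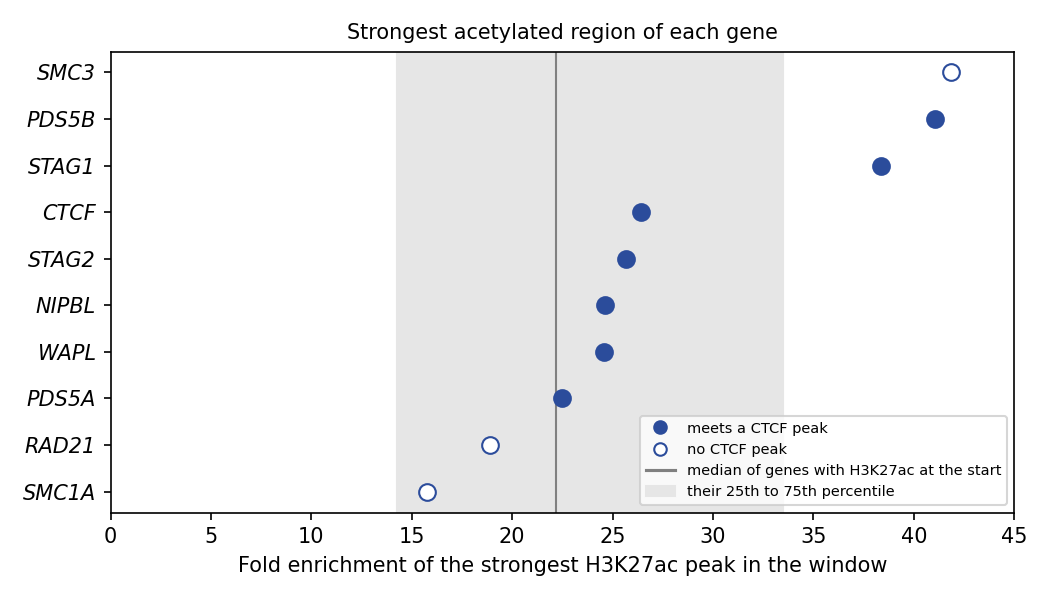
Fold enrichment of the strongest H3K27ac peak in each window, filled where that peak met a CTCF peak. The grey line and band are the median (22.2) and the 25th to 75th percentile of genes with H3K27ac at the start; SMC3 at 41.9, RAD21 at 18.9 and SMC1A at 15.8 are the open points.

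Most acetylated regions far from the starts carried no CTCF, in these windows as in those of all genes. Of the 43 H3K27ac peaks in the windows, 12 met CTCF, or 27.9%, with a 95% Wilson interval from 16.7 to 42.7%. Over the windows of all protein-coding genes the share was 20.7%, which lies inside that interval. With the CTCF summit required inside the acetylated peak, the shares were 13.95% and 11.0%. With the summit within 2 kb of a start, 11 of 18 peaks met CTCF (61.1%, interval 38.6 to 79.7%), against 31.4% for all genes and 33.3% for genes with H3K27ac at the start. Farther than 2 kb, 1 of 25 peaks did (4.0%, interval 0.710 to 19.5%), against 15.3% for all genes and 13.7% for genes with H3K27ac at the start. Both of these background shares lie inside the interval of the distant peaks. At the starts of STAG1, STAG2, WAPL and PDS5B a single CTCF peak met 2 acetylated peaks, and each of these was counted. The 11 peaks near a start therefore do not stand for 11 separate CTCF peaks, and the CTCF peak of WAPL had a q-value of 0.430. Peaks of 1 gene share their surroundings, so these intervals are too narrow, and the differences were not tested.

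**Figure D4:**
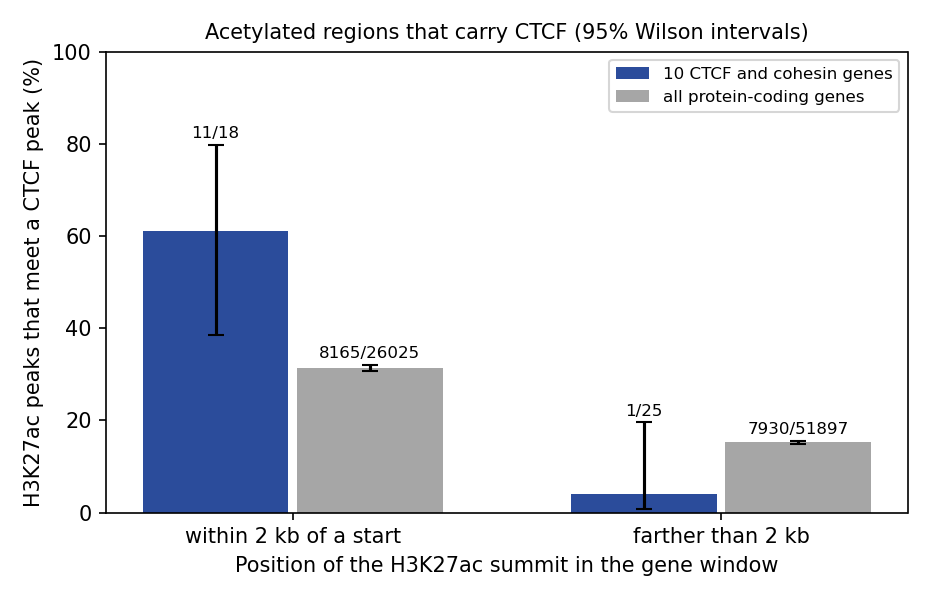
Share of H3K27ac peaks in the gene windows that met a CTCF peak, by distance of the H3K27ac summit from a start, for the 10 genes and for all protein-coding genes, with 95% Wilson intervals and counts above the bars. Near the start 11 of 18 peaks of the 10 genes met CTCF and farther away 1 of 25 did.

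The 25 distant peaks had fold enrichments of 2.49 to 8.41 with a median of 4.80, close to the list median of 4.74. They fell into 13 runs when peaks under 1 kb apart were joined, and lay in the windows of CTCF, STAG1, NIPBL, PDS5A and PDS5B. PDS5A had 10 of them, in 5 runs. The nearest of these lay 40.9 kb from the start, and a run of 3 peaks from 39863841 to 39865012 reached a fold of 8.32. STAG1 had a run of 4 peaks from 136657479 to 136660252, inside the gene and 92.7 kb from the start, with folds of 2.59 to 8.41. PDS5B had a run of 2 peaks from 32695482 to 32696776 with folds of 5.05 and 6.65, and NIPBL a run of 2 peaks with folds of 3.92 and 5.98, 178 kb from its start. The run that met CTCF was the one in the flank of the CTCF gene. Of the 17 CTCF peaks farther than 2 kb from a start, 1 met an acetylated region (5.88%, interval 1.05 to 26.98%) and 16 did not. The share that met one was 24.6% over the windows of all genes, which lies inside that interval. Among the 16 that met none, the highest signals were 257 in the flank of the CTCF gene and 224 in PDS5B. Next came 191 in the flank of SMC3 and 188 in STAG1. These peaks lay 82.3, 64.5, 42.8 and 361 kb from the start, in the same order. RAD21, SMC1A, SMC3, STAG2 and WAPL had no H3K27ac peak farther than 2 kb from a start.

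The 10 genes were long. They had a median length of 114 kb, against 24.2 kb for all protein-coding genes. Per 100 kb of window, the median was 1.89 CTCF peaks and 1.96 H3K27ac peaks, against 2.54 and 3.96 over all genes. The lowest CTCF density with any peak was that of STAG1 (0.688), the longest gene at 416 kb, and the highest was that of SMC3 (5.14).

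Genes that regulate cohesin were examined in the same way. Of 8 such genes (MAU2, ESCO1, ESCO2, CDCA5, HDAC8, ESPL1, PTTG1 and SGO1), 8 windows held an H3K27ac peak (77.1% of all genes), 6 held a CTCF peak (75.2%) and 2 had CTCF at the strongest acetylated region (37.4%), so their CTCF counts are near the shares over all genes. MAU2, the partner of NIPBL in loading, had the highest fold of the list (59.1), in a peak that met CTCF and also overlaps SUGP1. HDAC8, which deacetylates SMC3, followed with 31.1 and had no CTCF peak in its window. Of 5 paralogs used mainly in germ cells, STAG3, SMC1B, REC8 and CTCFL had an H3K27ac peak in the window (77.1% of all genes) and RAD21L1 had none. Their highest folds were 19.5, 8.95, 8.14 and 5.23. Those peaks overlapped the neighbouring genes GPC2 (for STAG3), FAM118A (for SMC1B) and IPO4 (for REC8), and only that of CTCFL overlapped the gene itself. Of these 5 genes, 1 (STAG3) had H3K27ac at the start (43.7% of all genes). Of the 4 genes with an acetylated region, 0 had CTCF at the strongest one (37.4%). With so few genes, these counts cannot be separated from the shares over all genes.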

How the data were processed

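ChIP-seq was analysed from cells of the KOLF2.1J line labelled as neurons, with 2 CTCF, 2 H3K27ac and 2 input libraries. Fixation used 1% formaldehyde (10 minutes) and amplification 15 PCR cycles, per the labels' protocols. The submitters' processing notes name cutadapt 1.16 and the build hg38; the aligner, the peak caller and its settings are not given in the sources used here. The deposited CTCF list gives a signal value per peak on an unstated scale. The deposited H3K27ac list gives a ratio, read from its values and layout as a fold enrichment. Both deposited lists also hold −log10 q values and a pipeline score that was not used. All peak values are the authors' own and were compared within a list only. The lists hold 0 columns of single libraries, so depth, replicate spread and values of inputs were not analysed here.

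Gene intervals and promoter sequences came from RefSeq (GRCh38.p14), the same primary build as hg38. As a check, 43.7% of 19970 protein-coding genes on 23 chromosomes had a start in an H3K27ac peak, and 3.54 to 3.98% when starts were moved by 5 to 500 kb. Start sites were known for 15812 genes, and both gene ends were counted as starts for the other 4158, among them RAD21, whose printed distances are from its higher-coordinate end unless stated. Peaks met when they shared at least 1 bp. Positions are 1-based. Wilson intervals were computed at 95% with SciPy 1.17.1, in Python 3.11.15 with pandas 2.3.3, and the overlap code was tested on simulated data. The 10 genes, the gene lists, the windows and the definitions were chosen with earlier results of these data known, so no list is independent evidence. All 10 genes were named, other genes only from the lists, with at most the 2 highest folds of each and any germline gene with a peak. In the pluripotency list 1 of 7 genes was not found. Distal runs, gaps, the 2 kb division, neighbours, GC content, the fold-range background and CAGNNGGCG were added after the values were seen. So were the count of CTCF peaks meeting at least 2 acetylated peaks and the comparison of CTCF signals near the start. The promoter of RAD21 is not printed.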

Additional observations from a re-analysis of the deposited data

How the results depend on the processing

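No paired analysis was possible because each list covers both libraries of an antibody and holds no values of single libraries, and leaving out a library was not run for the same reason. Of 45 alternatives, 4 of them added after the data were seen, 37 left the result within the tolerance and 8 did not. This tally judges the value of the 10 genes, not its distance from the share over all genes. Alternatives that changed only the background could not move that value and are among the 37. The tolerance was 1.5 times for a count and the Wilson interval for a share, and none for a median. The CTCF peaks in the windows (27) became 50 with an extension of 50 kb and 17 in the strongest 50% of each list, and the H3K27ac peaks (43) became 68 with 50 kb, as wider windows and shorter lists must. With the CTCF summit required inside the acetylated region, the share of 27.9% (20.7% over all genes) became 13.95% (11.0%), and the number of genes with CTCF at the strongest region went from 7 to 4 (37.4% to 27.3% over all genes), because the summits of STAG2 and PDS5B lie in gaps and that of WAPL in the neighbouring peak. The median of the highest CTCF signal (242, against 182 over all genes with a peak) was 172 against 147 in the gene interval alone. With 50 kb it was 259 against 235. The motif count of 2 of 9 genes was 4 of 9 with CNAGNNGGC, which 34.4% of all genes with a promoter hold. By promoter it was 4 of 12, against 28.0% of all promoters. The share of acetylated regions meeting CTCF was 32.6% against 30.9% over all genes with CTCF within 1 kb, and 22.5% against 20.4% at q under 0.05, so the difference from all genes was smaller in these settings. Genes with any CTCF-marked acetylated region numbered 5 to 8 in all alternatives run, and the share over all genes moved as well. The 5 genes with the CTCF summit required inside stood against 33.2%, and the 8 genes with 50 kb against 62.7%. In the strongest 50% of each list it was 6 genes against 22.5%, and at q under 0.05 it was 6 against 43.1%. With 10 genes and no depth, a share must differ widely from its background to be separated from it.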

Other observations

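Other complexes of the same protein family gave further values. All 8 condensin genes, whose complex compacts chromosomes for division, had an H3K27ac peak in the window (77.1% of all genes), and 2 had CTCF at the strongest one (37.4% of all genes with a peak). The highest fold was 60.4 in SMC2, with no CTCF peak in its window, followed by 33.98 in NCAPH2. In the SMC5/6 complex, which acts in DNA repair, the strongest region met CTCF in 2 of 5 genes, near the share over all genes. SMC6 had the highest fold (55.7), in a peak shared with GEN1, and SMC5 followed with 23.3, and neither met CTCF there.

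Among 8 other architectural factors, 7 windows held an acetylated region that met CTCF, against 44.8% of all genes, and in 4 it was the strongest one, against 37.4%. ADNP had the highest fold (56.5), in a peak that met CTCF. ZNF143 followed with 48.7, in a peak that overlaps ZNF143-AS1 and met no CTCF peak, although its window held a CTCF peak with a signal of 255. These lists were chosen with earlier results known, and the differences between them were not tested.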
